A study of Mus musculus with 9 samples.

Results

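Immediate early genes are the genes that cells switch on within minutes of a stimulus, without first making new protein. The set described here holds 37 genes in all, immediate early genes together with other activity-induced genes. They were taken by symbol from a list drawn up with earlier results of these data known. The source was a table of 55335 genes in mouse substantia nigra RNA. The substantia nigra, in the midbrain, holds dopaminergic neurons that die in Parkinson disease. All 37 symbols matched 1 gene each. Of these, 36 had a mean of at least 0.5 FPKM (fragments per kilobase of transcript, scaled to library depth) and were tested among 15997 genes, and Atf3, at a mean of 0.374 FPKM, was not tested.

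The study had 3 groups of 3 libraries. Vehicle mice were injected with saline on 2 days of each week for 5 weeks. MPTP mice were injected into the peritoneum with MPTP hydrochloride at 20 mg/kg on the same days. MPTP is converted in the brain to a poison of mitochondria that dopaminergic neurons take up. Mice given MPTP plus exercise, called running mice below, had the same MPTP course and a running wheel that they could use freely for 2 months, counted from the first injection. No group ran without MPTP. Strain, sex, age and the time from the last injection or run to dissection were not given in the sources used here.

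In neurons, calcium entry and cyclic AMP activate kinases that phosphorylate CREB, which sits on the cyclic AMP response element (CRE), and the ERK pathway activates factors bound with SRF at CArG boxes. Both routes start transcription of a first wave of transcription factors (Fos and Jun proteins of the AP-1 complex, the EGR zinc fingers, Npas4 and the NR4A nuclear receptors). These in turn act on a later wave of genes for synapses and secreted signals. The same first wave carries its own brakes, such as the phosphatases DUSP1 and DUSP6, which switch MAP kinases off. The transcripts are short-lived, so their level at dissection reflects the last minutes to hours, and non-neuronal cells induce many of them as well.

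Promoter sequence was read for what the members share besides their names. Of the 37 members, 28 had an entry in the RefSeq promoter table (38 promoters of 300.0 bases, 250 before and 50 after the start, GRCm38.p6). Arc, Egr1, Egr3, Ier2, Klf10, Nptx2, Sik1, Trib1 and Vgf had none, so the shares below do not cover them. The core of the CRE, TGACG on either strand, was in promoters of 19 of the 28 genes (67.9%) against 23.0% of all genes in the table. The full palindromic CRE, TGACGTCA, which contains the core on both strands, was in 5 (17.9%, against 2.03%). Those 5 genes were Arl4d, Btg2, Dusp1, Maff and Ppp1r15a. An EGR site, GCGNGGGCG with G or T at N, was in 5 member genes (17.9%, against 3.93%), an AP-1 site, TGANTCA, in 1 (3.57%, against 8.97%) and a CArG box in 1 (3.57%, against 1.81%), all searched on both strands. Member promoters had a median GC content of 62.7%, against 52.7% over all 32851 promoters, and its part in these shares was not tested. A match describes letters in this window only. The 250 bases before the start are shown for the 3 members with a full CRE that had the largest fitted differences between MPTP and vehicle, and for 3 widely used activity markers with the core alone. Capitals mark the core, or the full CRE where 2 cores overlap.
Dusp1, chr17:26508473-26508722, minus strand: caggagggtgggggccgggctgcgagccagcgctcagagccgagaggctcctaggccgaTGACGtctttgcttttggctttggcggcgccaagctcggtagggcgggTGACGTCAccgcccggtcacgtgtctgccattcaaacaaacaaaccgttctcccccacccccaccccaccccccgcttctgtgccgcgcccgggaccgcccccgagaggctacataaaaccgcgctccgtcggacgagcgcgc
Arl4d, chr11:101665291-101665540, plus strand: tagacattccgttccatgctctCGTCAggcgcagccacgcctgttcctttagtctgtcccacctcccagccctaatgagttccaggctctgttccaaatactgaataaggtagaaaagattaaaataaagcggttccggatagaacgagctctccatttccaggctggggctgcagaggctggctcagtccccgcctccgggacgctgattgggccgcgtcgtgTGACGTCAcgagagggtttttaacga
Btg2, chr1:134079156-134079405, minus strand: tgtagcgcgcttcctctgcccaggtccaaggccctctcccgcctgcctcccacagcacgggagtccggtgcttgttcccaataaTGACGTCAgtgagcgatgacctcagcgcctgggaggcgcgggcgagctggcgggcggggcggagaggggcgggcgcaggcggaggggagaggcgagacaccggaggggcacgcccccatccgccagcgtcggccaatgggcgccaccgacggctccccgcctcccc
Fos, chr12:85473640-85473889, plus strand: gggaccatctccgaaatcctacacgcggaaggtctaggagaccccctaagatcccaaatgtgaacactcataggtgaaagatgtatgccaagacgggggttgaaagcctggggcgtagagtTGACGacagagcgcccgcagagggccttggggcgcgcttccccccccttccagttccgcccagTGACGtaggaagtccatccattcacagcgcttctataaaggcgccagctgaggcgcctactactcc
Junb, chr8:84978749-84978998, minus strand: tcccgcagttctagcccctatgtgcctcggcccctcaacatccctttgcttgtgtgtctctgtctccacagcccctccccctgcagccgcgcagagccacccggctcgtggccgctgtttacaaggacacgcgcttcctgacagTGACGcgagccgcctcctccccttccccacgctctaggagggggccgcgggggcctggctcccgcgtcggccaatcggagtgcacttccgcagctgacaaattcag
Nr4a1, chr15:101266596-101266845, plus strand: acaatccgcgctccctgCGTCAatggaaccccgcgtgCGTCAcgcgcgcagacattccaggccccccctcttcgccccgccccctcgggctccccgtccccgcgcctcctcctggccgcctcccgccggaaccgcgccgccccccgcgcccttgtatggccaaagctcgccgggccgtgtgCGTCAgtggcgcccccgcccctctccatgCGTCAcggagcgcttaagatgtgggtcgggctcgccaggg
The full CRE began 143 bases before the start in Dusp1, 26 in Arl4d and 166 in Btg2. Fos had cores at 129 and 66 bases before its start, Junb 1 core at 106 bases, and Nr4a1 4 cores between 233 and 40 bases.

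Depth was about 22000000 to 26600000 fragments per library, as estimated from the spacing of low values, and 13413 to 13965 genes reached 1 FPKM in a library. The sources do not say that each library is 1 mouse, so a p-value here reflects only how these libraries spread. The dissections differed in the cells they held. Th, the enzyme that makes the precursor of dopamine, was between 1.64 and 15.6 FPKM. The dopamine transporter Slc6a3 was listed at 0 in running replicate 2, was at 0.0377 FPKM in MPTP replicate 2 and 0.149 in running replicate 1, and lay between 1.41 and 14.4 in the other 6 libraries. Markers of excitatory neurons of cortex and hippocampus, which the substantia nigra does not contain, were present in every library. Their summed level over 14 genes was 65.6, 208 and 208 FPKM in vehicle replicates 1, 2 and 3, 136, 334 and 170 in MPTP replicates and 234, 153 and 273 in running replicates.

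The members varied more between libraries of 1 group than most genes. Their median within-group SD of log2(FPKM + 1) was 0.358, against 0.157 over the genes tested, and 17 of 36 lay above the 90th percentile of all genes (0.378), where the background is 10%. All 4 EGR genes were above it, with 3 of 6 AP-1 genes, 5 of 10 other transcription factors, 2 of 11 inhibitors, feedback genes and stress adaptors, and 3 of 5 synaptic and secreted effectors. The highest library stood above the lowest by 8.18-fold for Egr2, 7.19-fold for Arc and 5.97-fold for Klf10. The ratio was least for Ppp1r15a (1.33), Rgs2 (1.38) and Vgf (1.44). Egr2 and Ppp1r15a were singled out here after their values were seen.

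The same libraries were low or high for most members. Vehicle replicate 1 was the lowest of its group for 33 of 37 members, MPTP replicate 1 for 26 and running replicate 2 for 23. Over all genes tested these 3 libraries were the lowest of their group for 34.8%, 31.3% and 36.5%. Running replicate 1 was the highest of all 9 libraries for 14 members, vehicle replicate 3 for 9 and vehicle replicate 2 for 7. Over all genes tested they were the highest for 8%, 15.4% and 8%, so vehicle replicate 3 was often highest for genes in general. MPTP replicate 1 was the lowest of all 9 for 14 members and vehicle replicate 1 for 11, against 7% and 12.3% of all genes. No MPTP library but replicate 3 was the highest for any member. The heat map of all members shows these libraries as columns of mostly 1 colour.

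**Figure D1:**
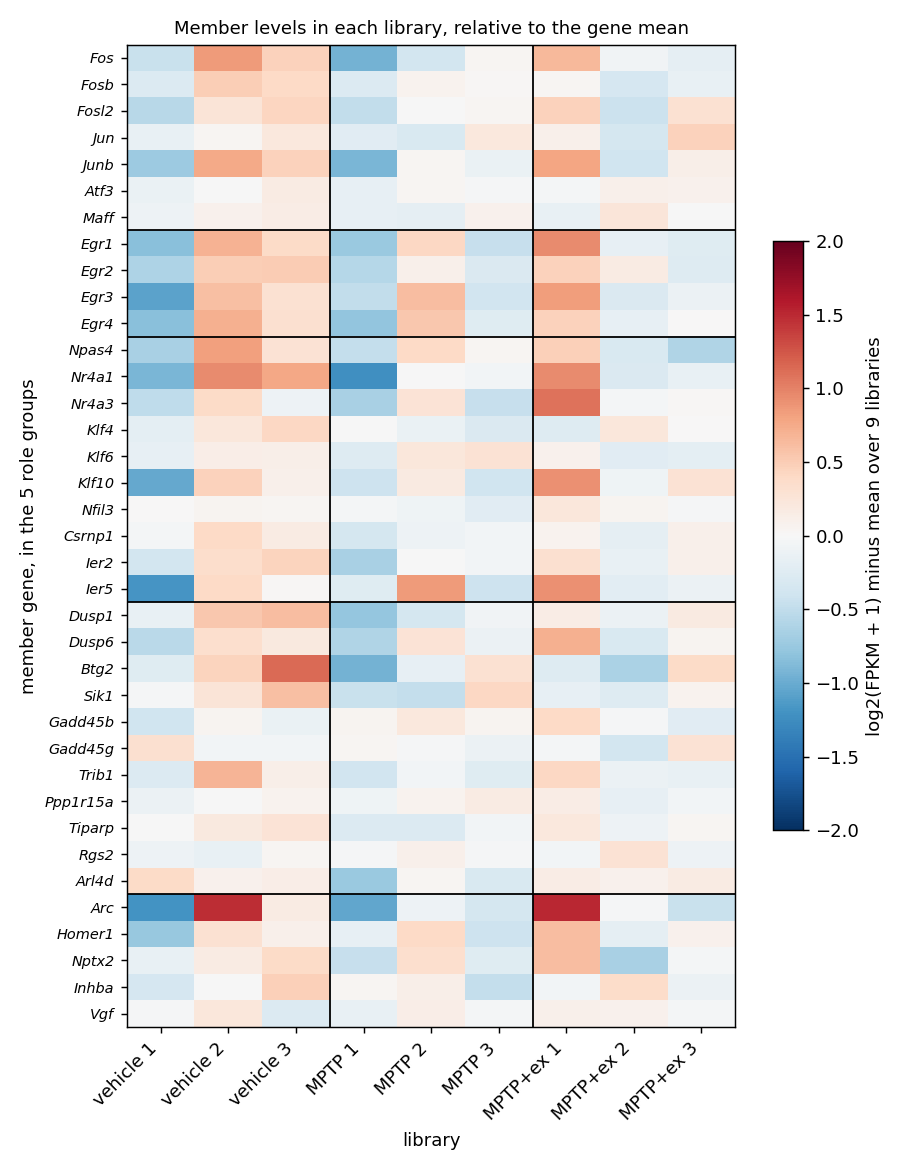
Level of each of the 37 members (rows, in 5 role groups from top to bottom: AP-1, EGR, other transcription factors, inhibitors with feedback genes and stress adaptors, effectors) in the 9 libraries (columns), as log2(FPKM + 1) minus the gene's mean over the 9 libraries, with red above and blue below the mean. Vehicle replicate 1 and MPTP replicate 1 are blue for most rows, and running replicate 1, vehicle replicate 2 and vehicle replicate 3 are red for most, while Vgf, Rgs2 and Ppp1r15a are pale throughout.

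The AP-1 genes encode the subunits of a dimeric transcription factor. Fos, the subunit most used as a marker of recent activity, was at 4.87, 13.5 and 9.98 FPKM in vehicle replicates 1, 2 and 3. It was at 3.17, 5.23 and 7.20 FPKM in MPTP and at 11.5, 6.66 and 6.08 in running replicates. The 3 groups overlapped, with the highest values in vehicle replicate 2 and running replicate 1. Junb, a Jun protein with weaker activating function than Jun itself, was at 5.13, 16.2 and 13.0 FPKM in vehicle, 4.36, 9.36 and 8.21 in MPTP and 16.6, 6.70 and 9.94 in running replicates. It had the same 2 high libraries as Fos. Jun, the main partner of Fos, spanned less, at 10.8, 12.4 and 13.96 FPKM in vehicle, 10.1, 9.48 and 14.1 in MPTP and 12.9, 9.21 and 17.0 in running replicates. Fosb was low throughout, at 0.616, 1.75 and 1.57 FPKM in vehicle, 0.618, 1.06 and 0.983 in MPTP and 0.998, 0.548 and 0.767 in running replicates. For Fosb and Jun, too, every pair of groups overlapped. Gene-level FPKM does not separate full-length FosB from its long-lived truncated form. The partners Fosl2 (0.980 to 3.02 FPKM), Maff (0.389 to 0.857) and Atf3 (0.217 to 0.529) lay lower. Jun shares 232 exonic bases and Junb 173 with annotated genes on the other strand, and since the strandedness of the counting is not given, reads from the shared bases cannot be told apart.

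The EGR zinc fingers bind GC-rich sites and carry the response on to synaptic genes. Egr1 was at 13.5, 41.1 and 32.8 FPKM in vehicle replicates 1, 2 and 3, 14.5, 33.6 and 17.7 in MPTP and 49.1, 22.0 and 20.8 in running replicates. Egr3 followed the same order of libraries within vehicle and MPTP, at 3.25, 12.4 and 9.99 FPKM in vehicle, 5.30, 12.6 and 5.81 in MPTP and 14.8, 6.30 and 7.23 in running replicates. In both genes vehicle replicate 1 was the lowest and running replicate 1 the highest of all 9 libraries, and every group spanned most of the range. Egr2 (0.198 to 1.62 FPKM) and Egr4 (1.11 to 5.14) were also lowest in vehicle replicate 1.

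Among the other transcription factors, Nr4a1 and Nr4a3 are orphan nuclear receptors, and Nr4a family members also take part in the development and upkeep of dopaminergic neurons. Nr4a1 was at 4.67, 19.5 and 17.2 FPKM in vehicle, 3.54, 9.60 and 9.26 in MPTP and 19.7, 7.74 and 8.63 in running replicates. Nr4a3 was at 1.08, 2.88 and 1.75 FPKM in vehicle, 0.891, 2.58 and 1.15 in MPTP and 5.28, 1.90 and 2.02 in running replicates. The 5.28 FPKM of running replicate 1 set the upper end for Nr4a3, and the other 8 libraries overlapped freely. Klf10, a zinc finger factor first described as induced by TGF-beta, was at 1.34, 5.55 and 4.09 FPKM in vehicle, 2.56, 4.38 and 2.60 in MPTP and 7.97, 3.49 and 4.78 in running replicates. Ier5, a nuclear regulator of the heat shock response, was at 3.42, 12.3 and 9.25 FPKM in vehicle, 7.53, 17.2 and 6.52 in MPTP and 17.9, 7.65 and 8.25 in running replicates. Both were lowest in vehicle replicate 1 and highest in running replicate 1, and Ier5 was nearly as high in MPTP replicate 2.

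Nfil3 and Csrnp1 were steadier. Nfil3, a leucine zipper repressor linked to the circadian clock, was at 2.97, 3.11 and 3.08 FPKM in vehicle, 2.84, 2.74 and 2.40 in MPTP and 3.62, 3.11 and 2.88 in running replicates. Its 3 MPTP values lay below all 6 other values. Csrnp1, a nuclear protein induced by axin, was at 1.72, 2.71 and 2.15 FPKM in vehicle, 1.20, 1.61 and 1.69 in MPTP and 1.95, 1.48 and 2.03 in running replicates. Its MPTP values lay below all vehicle values and overlapped the running group. Csrnp1 shares 224 exonic bases with a gene on the other strand. Npas4, a factor that calcium entry induces selectively in neurons, was at 1.02 to 4.62 FPKM, Klf4 at 1.36 to 2.85, Klf6 at 6.48 to 9.99 and Ier2 at 1.98 to 5.38 FPKM.

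The inhibitors, feedback genes and stress adaptors include the members that stood lowest in MPTP. Dusp1, a nuclear phosphatase that inactivates p38, JNK and ERK, was at 5.76, 9.92 and 10.5 FPKM in vehicle, 3.38, 4.91 and 6.14 in MPTP and 7.31, 5.90 and 7.48 in running replicates. MPTP replicates 1 and 2 were the lowest 2 libraries for Dusp1, and MPTP replicate 3, at 6.14 FPKM, lay above vehicle replicate 1 and running replicate 2. Arl4d, a small GTPase of the ARF-like family, was at 15.1, 12.2 and 12.6 FPKM in vehicle, 6.44, 11.8 and 9.02 in MPTP and 12.8, 12.1 and 12.9 in running replicates. All 3 MPTP values of Arl4d lay below the 6 others, by a narrow margin in MPTP replicate 2. Tiparp, a mono-ADP-ribosyltransferase that restrains the aryl hydrocarbon receptor, was at 4.24, 5.00 and 5.33 FPKM in vehicle, 3.34, 3.35 and 4.09 in MPTP and 5.07, 3.90 and 4.43 in running replicates. Tiparp separated MPTP from vehicle and not from running, where replicate 2 lay below MPTP replicate 3. Tiparp shares 223 exonic bases and Dusp1 11 with genes on the other strand.

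Btg2, an antiproliferative cofactor of mRNA deadenylation, was at 3.74, 6.62 and 11.3 FPKM in vehicle, 1.93, 4.004 and 5.89 in MPTP and 3.68, 2.61 and 6.30 in running replicates. Sik1, a kinase that keeps CREB coactivators out of the nucleus, was at 2.63, 3.37 and 4.56 FPKM in vehicle, 1.71, 1.65 and 3.91 in MPTP and 2.28, 2.05 and 2.87 in running replicates. For both genes vehicle replicate 3 was the highest library, and the groups overlapped. Gadd45b, an adaptor of stress signalling and DNA demethylation, went the other way, at 2.65, 3.98 and 3.40 FPKM in vehicle, 4.01, 4.54 and 3.99 in MPTP and 5.36, 3.73 and 3.13 in running replicates. Its 3 MPTP values lay just above all vehicle values. Rgs2, which shortens signalling by G proteins of the Gq class, was nearly level at 10.96, 10.6 and 12.2 FPKM in vehicle, 11.7, 12.8 and 11.6 in MPTP and 11.4, 14.7 and 10.9 in running replicates. The remaining members of the group were Dusp6, the ERK phosphatase, at 5.996 to 16.3 FPKM, Gadd45g at 4.68 to 8.09, Trib1, a pseudokinase that directs protein degradation, at 1.39 to 3.96, and Ppp1r15a, which restarts translation after stress, at 3.65 to 4.84 FPKM.

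Effector genes act at the synapse or outside the cell. Arc, whose protein removes AMPA receptors from synapses, was at 8.78, 61.6 and 24.3 FPKM in vehicle, 9.90, 20.0 and 16.6 in MPTP and 63.2, 21.2 and 15.6 in running replicates. Vehicle replicate 2 and running replicate 1 stood far above the other 7 libraries, which lay between 8.78 and 24.3 FPKM. Vgf, the precursor of several secreted neuropeptides, was at 34.8, 41.7 and 29.0 FPKM in vehicle, 31.7, 38.9 and 34.3 in MPTP and 37.9, 37.4 and 34.6 in running replicates. It was the most abundant member on the FPKM scale and did not separate the groups or the libraries that were high for Arc. Homer1, a scaffold whose short form is the induced one and is not resolved here, was at 3.46 to 10.6 FPKM, the AMPA receptor clustering protein Nptx2 at 4.51 to 12.2 and Inhba, the activin A subunit, at 0.807 to 2.49 FPKM.

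**Figure D2:**
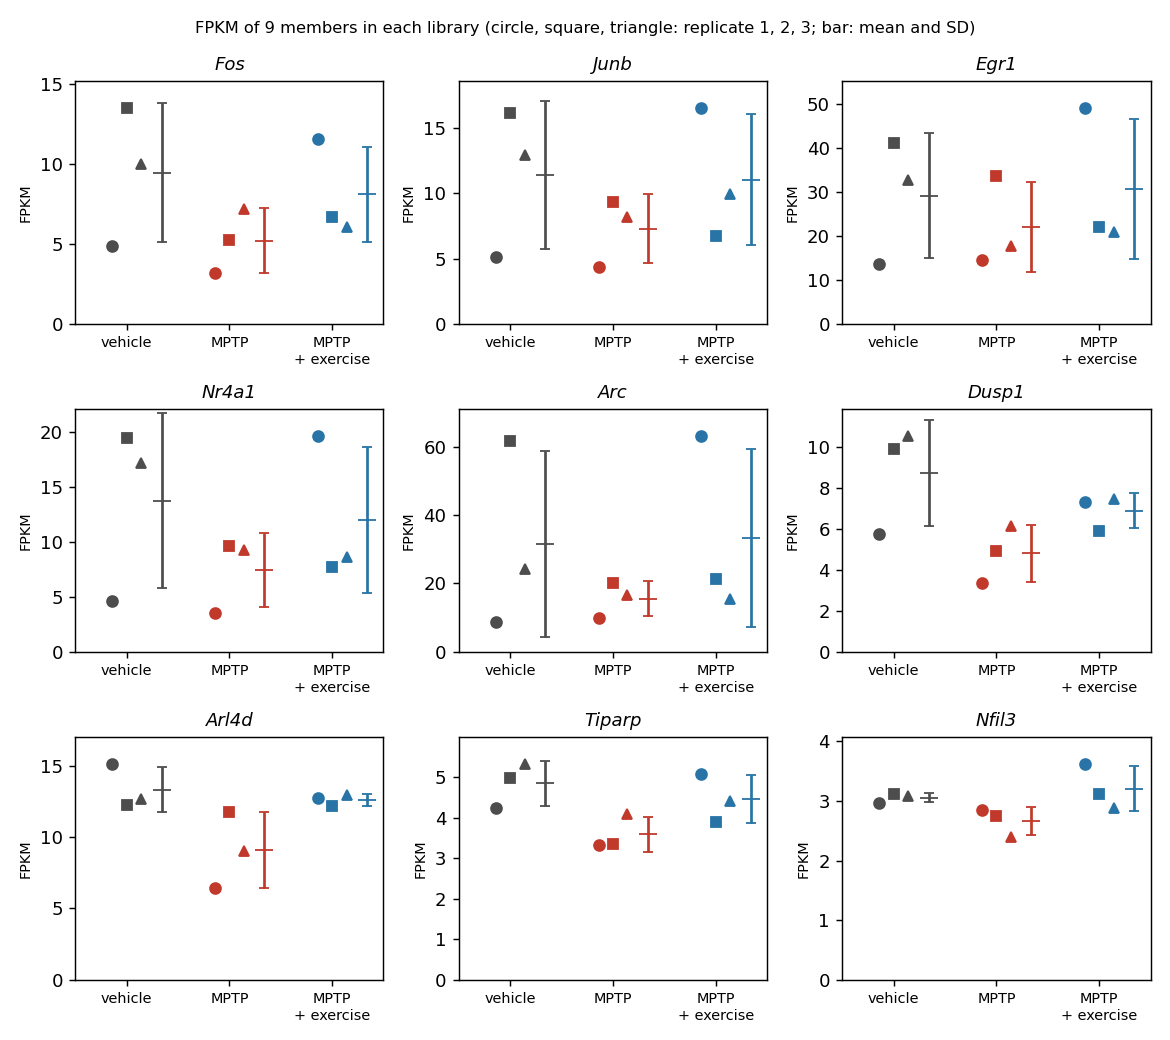
FPKM of 9 members in each library (y axes start at 0), with circles, squares and triangles for replicates 1, 2 and 3 and bars for the mean and SD of the 3 libraries of a group. Fos, Junb, Egr1, Nr4a1 and Arc have wide, overlapping groups with replicate 1 lowest in vehicle and highest in running, while the MPTP values of Arl4d and Nfil3 lie below all other values and those of Tiparp below all vehicle values.

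The first comparison set MPTP against vehicle libraries, which also differed in the cells they held. Most members were lower in MPTP libraries, but none passed the test. Of 36 members, 29 had a log2 fold change below 0, against 51.8% of all genes tested, with a median of -0.22 against -0.01. Members rose and fell together between libraries, so these are not counts of independent genes. The mean log2(FPKM + 1) of the 36 members was 2.19, 2.96 and 2.85 in vehicle replicates 1, 2 and 3. It was 2.14, 2.66 and 2.46 in MPTP replicates, so the groups overlapped. The members' median level in a library had a within-group SD of 0.28, pooled over the groups. By role, 6 of 6 AP-1 genes were below 0 (median -0.23), as were 4 of 4 EGR genes (-0.29), 8 of 10 other transcription factors (-0.18), 8 of 11 inhibitors, feedback genes and stress adaptors (-0.35) and 3 of 5 effectors (-0.15). The 7 members above 0 were Gadd45b, Homer1, Ier5, Klf6, Ppp1r15a, Rgs2 and Vgf. In bulk tissue, fewer cells of a type and less RNA per cell cannot be told apart.

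In that comparison 0 of 36 members passed limma's test with Benjamini-Hochberg adjustment over all genes (2 of 15997 genes passed, 0.0125%). At an unadjusted p under 0.05 there were 4 members, all lower, where 1.48% of all genes were lower at that level. Dusp1 went from a mean of 8.74 ± 2.60 (SD, n = 3) to 4.81 ± 1.38 FPKM (SD, n = 3), a log2 fold change of -0.74 (SE 0.24). Arl4d went from 13.3 ± 1.56 to 9.08 ± 2.67 FPKM (-0.54, SE 0.18) and Tiparp from 4.86 ± 0.561 to 3.59 ± 0.428 FPKM (-0.35, SE 0.12). Csrnp1 went from 2.19 ± 0.492 to 1.501 ± 0.268 FPKM (-0.35, SE 0.14). Each of these 4 had a limma adjusted p of 0.991. Fos, next by p, went from 9.45 ± 4.34 to 5.20 ± 2.01 FPKM (-0.71, SE 0.37). The groups did not overlap for 4 members that were lower in MPTP (Arl4d, Csrnp1, Nfil3 and Tiparp), where 4.23% of all genes were lower without overlap, and for 1 that was higher (Gadd45b, background 5.2%).

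Other members had fitted differences of like size with wider errors. Nr4a1 was at -0.70 (SE 0.56), Btg2 at -0.71 (SE 0.42), Arc at -0.65 (SE 0.69) and Junb at -0.51 (SE 0.44). Egr1 was at -0.34 (SE 0.48) and Egr3 at -0.04 (SE 0.49), both within 1 SE of 0. With FPKM rescaled to the same sum in every library, 32 members and 68.1% of all genes were below 0.

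Same-numbered vehicle and MPTP libraries deviated together from their group means (correlations 0.251, 0.330 and 0.105). No label says that the numbers mark pairs. With the replicate number as a block in a fit of those 6 libraries, which was chosen after seeing the data, 11 members were lower at an unadjusted p under 0.05 (2.36% of all genes) and 1, Gadd45b, was higher (3.36%). The 11 were Arl4d, Btg2, Csrnp1, Dusp1, Fos, Ier2, Junb, Nr4a1, Sik1, Tiparp and Trib1. The lowest adjusted p was 0.220 in limma, for Dusp1, and 0 members passed. With the same block in the planned fit of all 9 libraries, the lowest adjusted p was 0.770 in limma, again for Dusp1. Fos, Ier2, Junb, Nr4a1, Trib1 and Gadd45b did not have an unadjusted p under 0.05 in that fit.

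**Figure D3:**
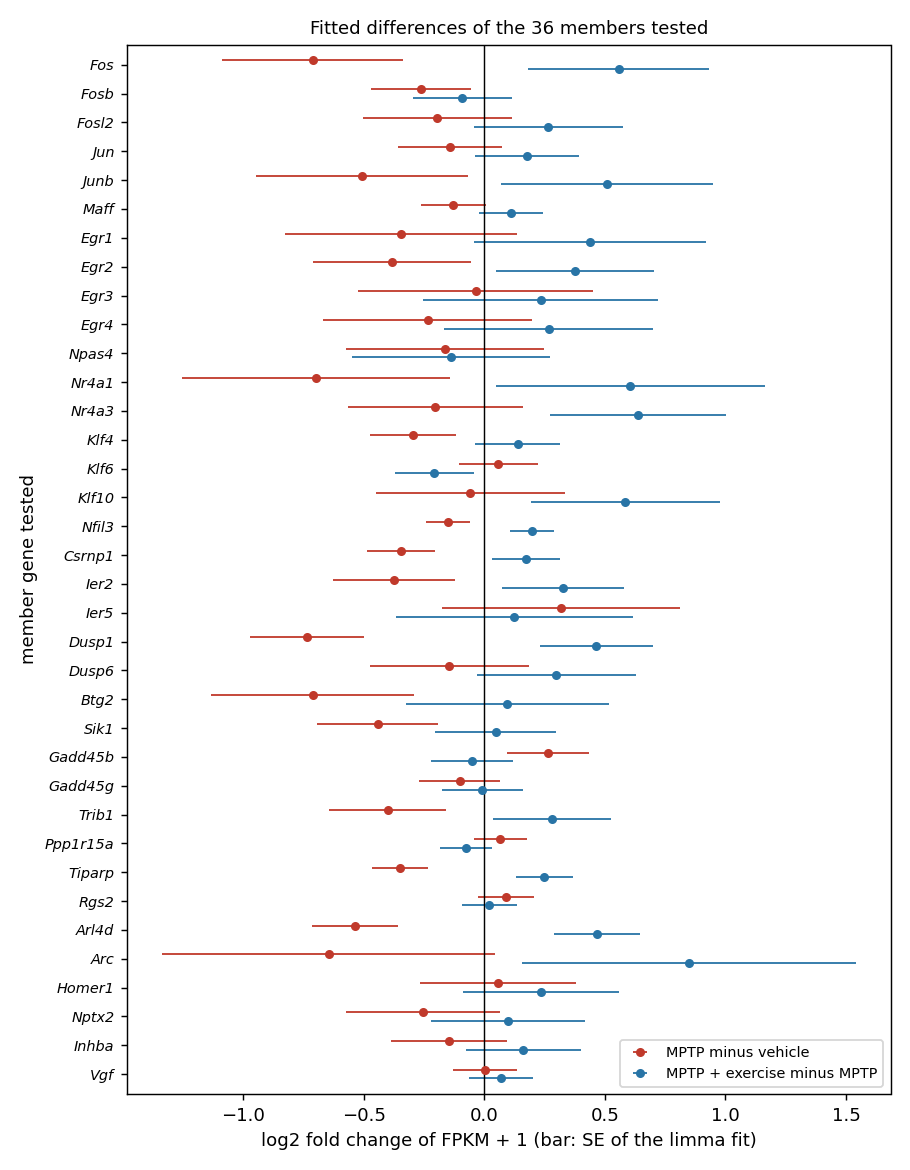
Fitted log2 fold change of FPKM + 1 for the 36 members tested, with the standard error of the limma fit, for MPTP minus vehicle (red) and MPTP plus exercise minus MPTP (blue). Red points lie left of 0 for 29 members and blue points right of 0 for 30, the bars of Arc and Nr4a1 are among the widest, and both comparisons use the same 3 MPTP libraries.

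The count depended on single libraries. Without vehicle replicate 1, the library lowest for 33 members in its group, 12 members were lower at an unadjusted p under 0.05 (1.95% of all genes), Arl4d was not among them, and the median was -0.46. Without MPTP replicate 1 the median was -0.12 and 2 members, Arl4d and Dusp1, were at that level (1.8% of all genes lower). The median was -0.13 without vehicle replicate 2, -0.15 without vehicle replicate 3, where Arl4d and Dusp1 were again the 2 members at that level (0.947%), and -0.34 without MPTP replicate 2. It stayed below 0 and 0 members passed the adjusted threshold in each of these fits.

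The second comparison set running against MPTP libraries, which likewise differed in the cells they held. Most members were higher in running libraries, again without a member past the threshold. Of 36 members, 30 had a log2 fold change above 0, against 45.7% of all genes, with a median of 0.22 against -0.01. These were 5 of 6 AP-1 genes, 4 of 4 EGR genes, 8 of 10 other transcription factors, 8 of 11 inhibitors, feedback genes and stress adaptors and 5 of 5 effectors. The 6 below 0 were Fosb, Gadd45b, Gadd45g, Klf6, Npas4 and Ppp1r15a. The comparison shares the MPTP libraries with the one before, so a low MPTP value enters both with opposite sign. Here too the members moved together between libraries and are not independent counts. Their mean log2(FPKM + 1) was 2.97, 2.44 and 2.57 in running replicates 1, 2 and 3. In MPTP replicates it was 2.14, 2.66 and 2.46, so the groups overlapped. The pooled within-group SD of the members' median level was 0.28.

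Between running and MPTP, 0 of 36 members and 0 of 15997 genes (0%) passed limma with Benjamini-Hochberg adjustment, and 1 member (Arl4d) and 639 genes (3.99%) had an unadjusted p under 0.05. Arl4d was at 12.6 ± 0.408 FPKM in running mice against 9.08 ± 2.67 in MPTP (SD, n = 3 each), a log2 fold change of 0.47 (SE 0.18, limma adjusted p = 0.9999). Its 3 running values lay within 12.1 to 12.9 FPKM, close to vehicle replicates 2 and 3. Nfil3 was at 3.20 ± 0.376 against 2.66 ± 0.233 FPKM (0.20, SE 0.09), Tiparp at 4.47 ± 0.590 against 3.59 ± 0.428 FPKM (0.25, SE 0.12) and Dusp1 at 6.90 ± 0.869 against 4.81 ± 1.38 FPKM (0.47, SE 0.24). Nr4a3 was at 3.07 ± 1.92 against 1.54 ± 0.911 FPKM (0.64, SE 0.36). The groups did not overlap for 2 members, Arl4d and Nfil3, both higher in running mice, where 2.66% of all genes were higher without overlap, and for 0 members that were lower (5.36%). Arc had the largest fitted difference, 0.85, with an SE of 0.69. The call of Arl4d rested on single libraries. Without running replicate 1, 0 members had an unadjusted p under 0.05 (2.98% of all genes). Without MPTP replicate 1 the 1 member at that level was Klf6, which was lower (3.52%). Arl4d also missed that level without MPTP replicate 3, where Dusp1 and Tiparp reached it (2.98%), and without running replicate 3, where Nfil3 did (3.45%). There were 2 members without vehicle replicate 1 (Arl4d and Dusp1, 3.95%), MPTP replicate 2 (Arl4d and Nr4a3, 6.47%) and running replicate 2 (Arl4d and Tiparp, 5.74%). The median of the members was 0.11 without MPTP replicate 1, 0.11 without running replicate 1 and 0.36 without running replicate 2.

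The last comparison, running with vehicle, asks how far mice with both treatments stood from those given saline. Members lay on both sides of 0. Of 36, 19 were below 0, against 55.3% of all genes, and the median was -0.01 against -0.02. No member passed limma's adjusted test (0 of 15997 genes, 0%), none had an unadjusted p under 0.05 (1047 genes, 6.54%), and the groups overlapped for all 36 (9.2% of all genes were lower and 6.38% higher without overlap). The smallest p belonged to Fosb, at 0.771 ± 0.225 FPKM in running and 1.31 ± 0.608 in vehicle libraries (-0.35 on the log2 scale, SE 0.21, limma adjusted p = 0.766). Sik1 (-0.39, SE 0.25), Btg2 (-0.61, SE 0.42), Klf10 (0.53, SE 0.39) and Gadd45b (0.21, SE 0.17) followed, with limma adjusted p up to 0.793. At an unadjusted p under 0.05 there were 2 members without vehicle replicate 1 (Dusp1 and Fosb, both lower, 6.7% of all genes) and 1 without MPTP replicate 3 (Sik1, lower, 6.44%). The comparison shares the vehicle libraries with the first and the running libraries with the second. Its median was -0.26 without vehicle replicate 1, -0.15 without running replicate 1 and 0.08 without vehicle replicate 3. With FPKM rescaled to the same sum, 25 members and 70.8% of all genes were below 0.

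**Figure D4:**
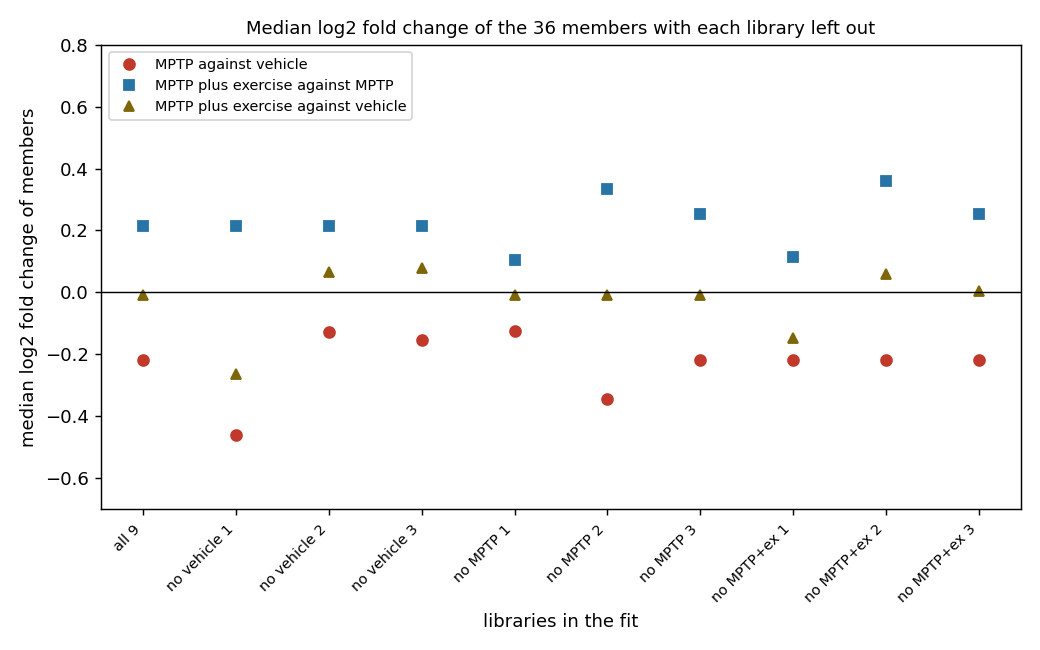
Median log2 fold change of the 36 members tested (y axis) in the fit of all 9 libraries and with each library left out in turn (x axis), for the 3 comparisons. MPTP against vehicle runs from -0.46 without vehicle replicate 1 to -0.12 without MPTP replicate 1 and stays below 0, running against MPTP runs from 0.11 to 0.36 and stays above 0, and running against vehicle lies on both sides of 0.

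Markers of other cells differed between the libraries that were low and high for the members. Within each group the library that was lowest for most members (vehicle replicate 1, MPTP replicate 1, running replicate 2) also had the lowest summed cortical and hippocampal markers. Slc17a7, the vesicular glutamate transporter of cortex and hippocampus, ranged from 20.9 FPKM in vehicle replicate 1 to 127 in MPTP replicate 2, and none of the 14 markers was at 0 in any library. At the upper end the order differed in part. MPTP replicate 2 had the highest marker sum, 334 FPKM. It was the highest of its group for 23 of 37 members (34.6% of all genes tested). Of all 9 libraries it was in the top 3 for 16 members (35.6% of all genes tested) and the highest for 0. Running replicate 3 had the second highest marker sum, 273 FPKM. The summed level of the 4 EGR genes was 31.3 FPKM there, 51.6 in MPTP replicate 2 and 69.5 in running replicate 1.

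Of the 14 markers, 12 were above 0 in MPTP against vehicle, where 29 of 36 members were below 0. In running against MPTP 8 of 14 were above 0, where 30 of 36 members were. In running against vehicle 10 of 14 were above 0, where 17 of 36 members were. The score of the markers, the mean log2(FPKM + 1) of the 14 genes, was also entered as a covariate in the fit of all libraries. With it, 32 of 36 members were below 0 between MPTP and vehicle and the median was -0.39. At an unadjusted p under 0.05, 13 members were then lower (2.19% of all genes) and 0 passed adjustment, with 0.350 as the lowest adjusted p in limma, for Dusp1. With the same covariate the median was 0.15 for running against MPTP, with 3 members higher at an unadjusted p under 0.05 (Arl4d, Dusp1 and Klf10, background 1.49%). For running against vehicle it was -0.23, with 4 lower (Btg2, Csrnp1, Dusp1 and Fosb, background 4.37%). The covariate was chosen after seeing the data. It adjusts for 1 marker score only, and oligodendrocyte, GABAergic and striatal markers, which also differed between these libraries, were not adjusted for. The part of the cortical and hippocampal cells in the members' values was not tested.

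**Figure D5:**
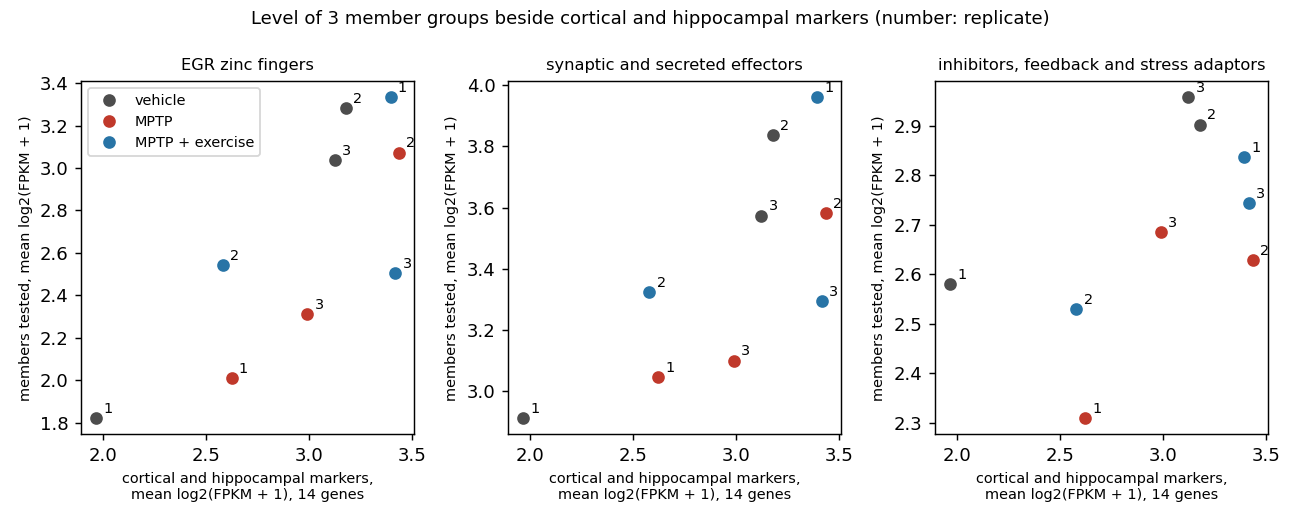
Mean log2(FPKM + 1) of the tested members in 3 role groups (y axes, which do not start at 0) against that of 14 cortical and hippocampal excitatory neuron markers (x axes, same scale), 1 point for each library, coloured by group and numbered by replicate. Vehicle replicate 1 is far left and lowest for EGR genes and effectors, and MPTP replicate 2 and running replicates 1 and 3 are far right. For EGR genes and effectors, running replicate 3 lies well below running replicate 1 at about the same marker level. For inhibitors, feedback genes and stress adaptors these 2 libraries lie closer, at 2.74 and 2.84.

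Other cell type markers moved with the comparisons as well. Over all genes tested, 51.8% were lower in MPTP than in vehicle and 45.7% were higher in running than in MPTP. In MPTP against vehicle, 10 of 10 choroid plexus markers were higher, 9 of them at an unadjusted p under 0.05 and 0 adjusted. Their sum was 38.1 to 346 FPKM in vehicle, 960 to 2082 in MPTP and 21.6 to 953 in running libraries, and none was at 0 in any library. In the same comparison 11 of 11 markers of striatal projection neurons and 11 of 12 thalamic markers were lower, with sums that overlapped between groups (striatal 72.7 to 169 FPKM in vehicle, 62.7 to 195 in MPTP and 79.1 to 186 in running, thalamic 424 to 595, 418 to 500 and 360 to 515). Of 12 microglia markers 10 were higher, with sums of 139 to 170, 156 to 208 and 145 to 171 FPKM. In running against MPTP, 10 of 10 choroid plexus, 10 of 10 endothelial, 11 of 11 mural and fibroblast and 11 of 12 microglia markers were lower. At an unadjusted p under 0.05 (3.99% of all genes), 7 endothelial, 5 choroid plexus, 3 mural and 1 microglia markers were lower and 1 microglia marker was higher. Against vehicle, 5 endothelial and 4 mural markers were lower in running at that level (6.54% of all genes). None passed adjustment. In running against MPTP 8 of 8 pan-neuronal genes were higher, with a median log2 fold change of 0.05. Endothelial sums were 74.2 to 77.8 FPKM in vehicle, 80.5 to 85.6 in MPTP and 60.2 to 76.1 in running libraries, and mural sums 51.3 to 78.4, 59.8 to 66.4 and 43.6 to 57.8. The summed level of the pan-neuronal genes overlapped between groups, at 959 to 1179, 976 to 1230 and 1035 to 1333 FPKM. The part of these cell types in the members' values was not tested. Sums overlapped between all groups for astrocytes (616 to 767 FPKM over the 9 libraries), oligodendrocytes (1208 to 2127), GABAergic neurons (243 to 362) and dopaminergic neurons (46.5 to 99.9, with Slc6a3, Pitx3 and Foxa2 at 0 in at least 1 library). Within each group, vehicle replicate 1, MPTP replicate 1 and running replicate 2 had the highest oligodendrocyte sums (2020, 1818 and 2127 FPKM). Their GABAergic (318, 337 and 362) and striatal sums (169, 195 and 186) were the highest of their groups. Vehicle replicate 2, MPTP replicate 2 and running replicate 1, highest of their groups for most members, had the lowest dopaminergic sums there (55.8, 46.5 and 47.2). The part of these sums was not tested.

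Genes around the members were read from 5 further lists, and in none did a gene pass the adjusted test in any comparison. Over all genes tested, 51.8% were lower in MPTP than in vehicle, 45.7% were higher in running than in MPTP and 55.3% were lower in running than in vehicle. Of 28 other immediate early genes tested, 17 were lower and 11 higher in MPTP than in vehicle (median log2 fold change -0.06). At an unadjusted p under 0.05, where 1.48% of all genes were lower, 2 of them were lower. These were Per1, the clock gene with CREs in its promoter, at 10.3 ± 1.68 and 7.48 ± 0.918 FPKM, and Ccn1, a matrix protein induced by serum, at 3.70 ± 1.84 and 1.501 ± 0.607 FPKM. In running against MPTP 20 of 28 were higher (median 0.09). Errfi1, a brake on EGF receptors, at 9.17 ± 0.830 against 7.59 ± 0.361 FPKM, and Per1, at 9.98 ± 1.66 against 7.48 ± 0.918, had an unadjusted p under 0.05 (3.99% of all genes). Against vehicle 14 running values were higher and 14 lower.

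Of 11 delayed activity-induced genes 9 were lower in MPTP than in vehicle (median log2 fold change -0.04). In running, 8 were higher than in MPTP (median 0.13), and none in either comparison had an unadjusted p under 0.05. Bdnf, the neurotrophin that activity induces through CREB and Npas4, was at 3.03 ± 0.740 FPKM in vehicle, and at 2.89 ± 0.687 in MPTP and 4.16 ± 1.30 under running. Gpr3, a receptor that raises cyclic AMP, was at 1.81 ± 0.401, 1.38 ± 0.213 and 1.98 ± 0.600 FPKM. Plat, the secreted plasminogen activator, was at 5.93 ± 0.206, 5.27 ± 0.770 and 5.08 ± 0.294 FPKM. For all 3 genes the difference between MPTP and vehicle had an unadjusted p above 0.05.

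Of 38 genes of upstream signalling (calcium channels and kinases, the cyclic AMP and ERK pathways, CREB and SRF), 26 were lower and 12 higher in MPTP than in vehicle. Their median log2 fold change was -0.04. Camk4, a nuclear kinase that phosphorylates CREB, was at 10.5, 11.6 and 12.6 FPKM in vehicle, 10.3, 8.93 and 8.95 in MPTP and 13.3, 10.5 and 11.99 in running replicates. Its 3 MPTP values lay below all 6 others, with log2 fold changes of -0.27 against vehicle (SE 0.11) and 0.31 for running against MPTP (SE 0.11), both at an unadjusted p under 0.05 and neither past adjustment. Between running and MPTP 19 were higher and 19 lower. Atf1, a relative of CREB, was at 3.17 ± 0.0704 FPKM in MPTP and 2.34 ± 0.639 in running mice, and Camkk1, which activates CaM kinases, at 30.7 ± 4.08 and 32.8 ± 2.84.

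Glucocorticoid-induced genes are read as a sign of stress hormones. Of 11, 6 were lower in MPTP than in vehicle (median log2 fold change -0.07) and 10 were higher in running than in MPTP (0.17). Sgk1, a kinase that corticosterone induces, was at 28.7, 18.5 and 17.3 FPKM in vehicle, 10.4, 14.7 and 16.1 in MPTP and 16.2, 17.4 and 28.3 in running replicates, so that MPTP lay below both other groups by a small margin (log2 fold change -0.60 against vehicle, SE 0.26). Sult1a1, the 1 gene of the list that was lower in running than in MPTP, was at 4.85 ± 0.555 against 6.53 ± 1.48 FPKM. Vehicle libraries had 1.22 ± 0.304 FPKM of Hif3a and MPTP libraries 0.835 ± 0.263, and Plin4 and Fkbp5 were at 1.57 ± 0.841 and 3.55 ± 1.16 FPKM in running against 0.868 ± 0.0740 and 2.66 ± 0.274 in vehicle mice.

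Of 10 heat shock genes 6 were higher in MPTP than in vehicle (median log2 fold change 0.02). In running, 9 were higher than in MPTP (0.19) and 10 higher than in vehicle (0.20). Hsp90aa1, the inducible cytosolic HSP90, was at 261, 250 and 235 FPKM in vehicle, 250, 261 and 246 in MPTP and 286, 307 and 280 in running replicates. All 3 running values lay above the other 6 (log2 fold change 0.21 against MPTP and 0.23 against vehicle, SE 0.08 each), at an unadjusted p under 0.05 and without passing adjustment. Hsph1, a nucleotide exchange factor of HSP70, was at 35.2 ± 4.30, 31.1 ± 1.06 and 37.1 ± 3.65 FPKM in vehicle, MPTP and running mice. Hspe1, the mitochondrial cochaperonin, was at 29.4 ± 4.50, 30.8 ± 3.75 and 34.5 ± 1.02 FPKM, and Hspb1 at 3.84 ± 1.64, 4.97 ± 0.929 and 4.67 ± 1.52.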

How the data were processed

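Gene values come from 1 deposited table of FPKM, which the authors computed for 55335 genes and 9 libraries. The labels describe bead enrichment of mRNA and an Illumina NovaSeq6000 run. Per the submitters' processing notes, bcl2fastq, HTSeq, DESeq2 and the build GRCm38 were used. The aligner, the FPKM tool and the strandedness were not given in the sources used here. Symbols came from GENCODE M21 (GRCm38), which matched 55154 genes and left 181 without a symbol, and promoters came from RefSeq (GRCm38.p6).

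Genes were kept at a mean FPKM of 0.5 or more (15997 genes). Their log2(FPKM + 1), a pseudocount of 1, went into limma with trended variances, in a single model of the 9 libraries that gave the 3 contrasts (residual degrees of freedom 6, prior 2.68). Two-sided p were adjusted over all genes by Benjamini-Hochberg, with a threshold of 0.05. Log2 fold changes are on this scale and understate changes of low genes. The fit was tested on simulated data.

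Values in every library are given for the 5 members with the smallest p in each comparison and the 2 with the highest mean FPKM in each role group, 21 members in all, and the 2 genes with the smallest p of each further list are named. The members and lists were chosen with earlier results of these data known. Same-numbered vehicle and MPTP libraries deviated together (correlations 0.251, 0.330 and 0.105), and no label says why. Vehicle and running libraries (-0.265, 0.00692 and 0.241) and MPTP and running libraries (-0.339, -0.134 and 0.247) did not all do so. Fragments were estimated from the steps between low values of 19516 single-transcript genes over 500 bases, of which 34.2% to 36.6% lay within 0.05 of a whole step, so no counts were recovered. Alternatives changed the scaling, pseudocount, filter, variance model, weights, block, covariate and libraries. R 4.3.3, limma 3.58.1, Python 3.11.15, pandas 2.3.3, numpy 2.4.6 and matplotlib 3.10.9 were used.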

Additional observations from a re-analysis of the deposited data

How the results depend on the processing

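Over 20 alternative settings for MPTP against vehicle and 19 for each other comparison, 0 members passed the adjusted threshold. The members' median kept its direction for MPTP against vehicle (-0.46 to -0.12 with libraries left out, -0.45 to -0.20 otherwise) and for running against MPTP (0.11 to 0.36, and 0.15 to 0.38), and lay on both sides of 0 for running against vehicle (-0.26 to 0.08, and -0.23 to 0.02). The -0.45 and 0.38 came from array weights. Several settings left the median unchanged by their design. These were no filter, no variance trend, only the 2 groups compared, the replicate block and leaving out a library of the third group. Over all genes, the count past the threshold between MPTP and vehicle went from 2 to 0 with only the 2 groups compared and to 0 with the replicate block on vehicle and MPTP libraries alone. Between running and MPTP it went from 0 to 1 after rescaling to equal sums, 3 with no filter and 1 with array weights. With 1 library left out these counts were 0 to 32 for MPTP against vehicle, 0 to 25 for running against MPTP and 0 to 2 for running against vehicle, and 32 and 25 were both without MPTP replicate 1. The cause was not tested. With the replicate block over all 9 libraries 0 members passed in any comparison.

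Of 33 member values refitted, 25 kept their sign in every setting, among them Dusp1, Arl4d and Tiparp in both comparisons that use MPTP libraries. The filter, variance trend, replicate block and fit of only the 2 groups compared cannot change a member's log2 fold change. Leaving out a library of the third group cannot change it either, so the sign was open only in the other settings. Between MPTP and vehicle, Vgf turned to -0.0724 with equal sums, -0.0193 quantile normalized, -0.10 with array weights and -0.0127 with the marker covariate, and Ier5 to -0.10 with array weights. Between running and MPTP, Rgs2 turned to -0.0184 with array weights and Ier5 to -0.000997 with the covariate. With 1 library left out, the values between MPTP and vehicle spanned 0 for Egr3 (-0.54 without vehicle replicate 1 to 0.29 without vehicle replicate 2), Ier5 (-0.15 to 0.64, same libraries), Arc (-1.32 to 0.0193, same libraries) and Vgf (-0.12 without vehicle replicate 3 to 0.13 without vehicle replicate 2). Those between running and MPTP spanned 0 for Egr3 (-0.11 without running replicate 1 to 0.58 without MPTP replicate 2), Ier5 (-0.23 to 0.52, same libraries), Jun (-0.0209 without running replicate 3 to 0.387 without running replicate 2) and Rgs2 (-0.10 without running replicate 2 to 0.0983 without running replicate 3). Fosb and Csrnp1 fell under a filter of 2 FPKM and have no value there. The table holds no counts, so the precision of members below 1 FPKM is not known.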

Other observations

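Prkacb, a catalytic subunit of the cyclic AMP-dependent kinase that phosphorylates CREB, split the vehicle group. It was at 48.7 FPKM in vehicle replicate 1 and at 20.0 and 19.8 in vehicle replicates 2 and 3, while the 6 MPTP and running libraries lay between 44.8 and 50.3 FPKM. The log2 fold change of Prkacb was 0.82 for MPTP against vehicle (SE 0.29) and 0.78 for running against vehicle (SE 0.29), both at an unadjusted p under 0.05 in limma and neither past adjustment.

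Nrn1, an activity-induced protein of the neurite surface, was at 13.1 FPKM in vehicle replicate 3 and between 45.1 and 70.8 FPKM in the other 8 libraries. It was singled out after its values were seen.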
